A study of Oryza sativa with 17 samples.

Results

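The weedy rice WR04-6 was compared with the cultivar QSZ after 12 days of seed imbibition at 10 °C, across all genes that were read at that time. WR04-6 is an accession of Oryza sativa f. spontanea, a weedy form that grows in and beside rice fields, and QSZ (Qishanzhan) is an indica cultivar of Oryza sativa. The labels name no mutation, transgene or added agent, and both seed lots were kept at the same temperature. The series holds 17 RNA libraries of germinating seeds from 3 times (10, 12 and 14 DAI, counted in days from imbibition), and 12 DAI holds 3 of WR04-6 and 3 of QSZ. A gene was taken as a member when its abundance, in fragments per kilobase of transcript scaled to the library total (FPKM), was at least 0.1 in 2 or more of these 6 libraries. By that rule 21233 of the 23223 genes in the deposited table were members. Each side is a single accession, so the comparison covers everything in which these 2 lines differ, including how far germination had gone, and these cannot be told apart. The RNA came from seeds with endosperm, aleurone and embryo together, and a lower level from fewer cells of a type cannot be told apart from less RNA per cell.

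Germination is governed by the opposing hormones abscisic acid (ABA) and gibberellin (GA). ABA builds up while the seed matures, holds it dormant and keeps genes for desiccation tolerance and storage proteins active. GA made by the embryo is known to release the aleurone and endosperm reserves and to allow the embryo axis to grow. Low temperature slows this turnover, and cultivated indica rice is known to germinate poorly in the cold. The question of the comparison was which genes set a weedy accession apart from a cultivated one at a time when both had been in the cold equally long.

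Of the 21233 members, 3539 were up-regulated in WR04-6 and 2860 were down-regulated, where a differentially expressed gene (DEG) had an adjusted p below 0.05 and an absolute log2 fold change of at least 1. All fold changes are WR04-6 over QSZ, and all adjusted p-values are from edgeR's quasi-likelihood test with Benjamini-Hochberg adjustment over the 21949 genes tested in the series. Of those tested genes 29.5% were DEGs in either direction, 16.3% being up-regulated and 13.2% down-regulated, and these shares are the background for every list that follows. The 3 WR04-6 libraries lay wholly above or wholly below the 3 QSZ libraries in FPKM for 66.1% of the tested genes, wholly above for 50% and wholly below for 16.1%, in values without the TMM correction described below. The up-regulated members had a median absolute log2 fold change of 2.41, and 1044 of them differed by 4 or more on that scale, against a median of 1.93 and 438 members among those down-regulated. Some members passed the abundance rule through a single accession: 1080 were below 0.1 FPKM in all QSZ libraries and 381 in all WR04-6 libraries. The rule favoured a difference in these members, though not all of them were DEGs. Among the 19772 members at 0.1 FPKM or more in at least 1 library of each accession, 2668 were up-regulated and 2586 down-regulated.

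The direction of the difference changed with the level in the higher accession. Among the 8015 members whose mean in the higher accession lay between 1 and 10 FPKM, 1829 were up-regulated and 1133 down-regulated. Among the 882 members between 100 and 1000 FPKM, 89 were up-regulated and 206 down-regulated. Of the 72 members at 1000 FPKM or more, 3 were up-regulated and 56, or 77.8%, were down-regulated. A member could enter the top class through a high level in QSZ alone, in FPKM without the TMM correction described below. These counts therefore describe the classes, and a link of direction with abundance was not tested. Storage proteins and desiccation-tolerance proteins, described below, were among the down-regulated members of the top class.

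**Figure D1:**
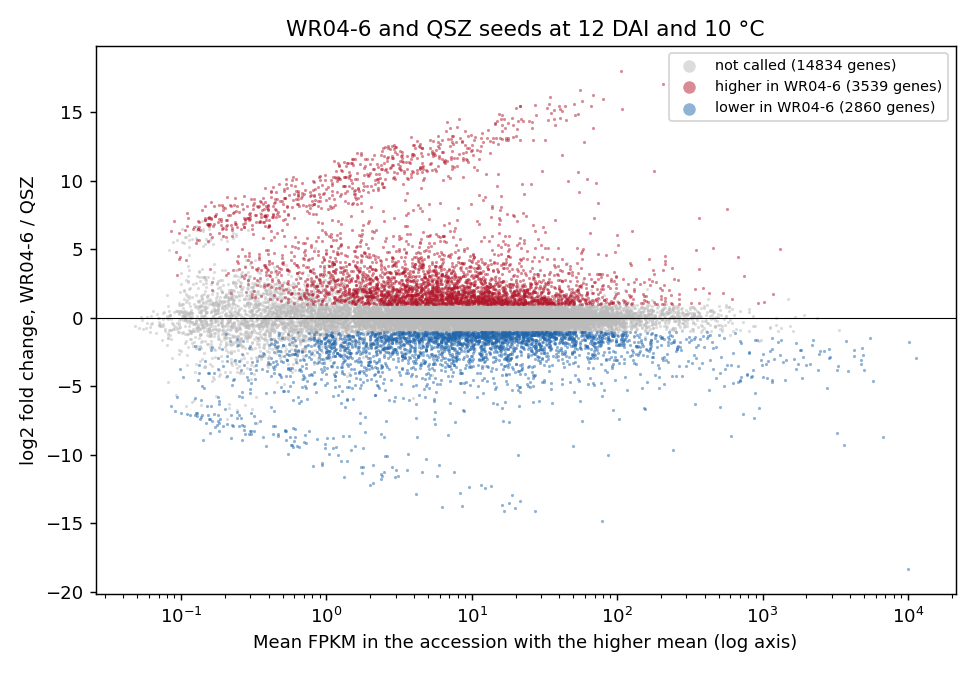
Log2 fold change of WR04-6 over QSZ at 12 DAI (vertical axis) against the mean FPKM of the higher accession (horizontal axis, log scale), 1 point for each member; coloured points are the 3539 up-regulated and 2860 down-regulated members. Points at the right edge, above 1000 FPKM, lie mostly below 0, and the diagonal bands are genes listed at 0 in 1 accession.

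The estimated counts summed to between 69410878 and 72494532 per WR04-6 library and between 64562065 and 68909607 per QSZ library. In WR04-6 the top 50 genes held 7.64% to 8.76% of a library, against 18.7% to 21.6% in QSZ. TMM scaling factors, which correct for this, lay between 1.10 and 1.11 for WR04-6 and between 0.805 and 0.877 for QSZ. FPKM values do not carry that correction. With it the tested genes had a median log2 fold change of 0.06, and with library totals alone of 0.44, so a ratio of the FPKM values printed here sits higher than the fitted fold change beside it. Log2 values of WR04-6 libraries correlated with each other at 0.981 to 0.983 across genes and those of QSZ libraries at 0.935 to 0.969, while the correlation between accessions was 0.781 to 0.824. QSZ replicate 1 lay farthest from the other libraries of its group for 9456 members. It was the highest QSZ library in storage-protein transcripts and the lowest in late embryogenesis abundant (LEA) transcripts, and counts that moved without it are given below. Markers of the tissues in a seed were read in both accessions. The summed level of 4 glutelin markers of the starchy endosperm was 2273 to 3409 FPKM in WR04-6 and 5925 to 14292 FPKM in QSZ. Of these 4 genes 2 were down-regulated, and glutelins did not all go this way, as described below. The aleurone markers RAmy1A, down-regulated, and OsGAMYB, up-regulated, summed to 61.0 to 68.5 FPKM in WR04-6 and 27.9 to 421 FPKM in QSZ. The green-tissue sum overlapped too, at 1.31 to 5.11 FPKM in WR04-6 and 0.744 to 2.21 FPKM in QSZ. The summed level of the shoot-meristem markers OSH1 and OSH15 was 29.4 to 31.6 FPKM in WR04-6 and 6.53 to 14.8 FPKM in QSZ. The root marker RCc3 stood at 26.1, 59.2 and 24.7 FPKM in WR04-6, against 5.62, 0.173 and 0 FPKM in QSZ. The part of these tissue shares in the gene differences was not tested.

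Genes of ABA metabolism were mostly lower in WR04-6. Of 9 tested genes 1 was up-regulated and 5 were down-regulated, with a median log2 fold change of -1.62. The down-regulated genes stood on both sides of the hormone's balance, since 2 of 6 synthesis genes and all 3 breakdown genes were among them. OsNCED5 (LOC_Os12g42280, chromosome 12, 26268230 to 26270794), a 9-cis-epoxycarotenoid dioxygenase that carries out the rate-limiting cleavage in ABA synthesis, was read at 0.208, 0.201 and 0.257 FPKM in WR04-6, against 9.39, 15.3 and 23.6 FPKM in QSZ (log2 fold change -6.56, SE 1.05, adjusted p = 0.000174). OsNCED3 (LOC_Os03g44380), of the same enzyme family, stood at 5.16, 3.63 and 4.52 FPKM in WR04-6, against 10.9, 8.72 and 13.6 FPKM in QSZ (log2 fold change -1.70, SE 0.48, adjusted p = 0.0103). In both genes every WR04-6 library was below every QSZ library. OsABA2 (LOC_Os03g59610, chromosome 3, 33938923 to 33941373), a short-chain dehydrogenase that makes abscisic aldehyde, went the other way with 25.96, 28.2 and 33.1 FPKM in WR04-6, against 5.68, 5.47 and 3.70 FPKM in QSZ (log2 fold change 2.19, SE 0.24, adjusted p = 7.8e-06). OsZEP1, the zeaxanthin epoxidase at the head of the pathway, overlapped between the accessions with 10.6, 8.76 and 10.1 FPKM in WR04-6, against 7.98, 10.3 and 7.55 FPKM in QSZ and was not called (log2 -0.18).

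The 3 ABA 8'-hydroxylases, which begin the breakdown of ABA, were all down-regulated in WR04-6. OsABA8ox2 (LOC_Os08g36860, chromosome 8, 23288613 to 23294164) was read at 1.52, 1.76 and 1.51 FPKM in WR04-6, against 26.4, 42.7 and 9.85 FPKM in QSZ (log2 fold change -4.39, SE 0.59, adjusted p = 4.0e-05). For OsABA8ox3 (LOC_Os09g28390) the values were 1.61, 0.822 and 1.11 FPKM in WR04-6, against 11.5, 11.6 and 12.3 FPKM in QSZ (log2 fold change -3.69, SE 0.60, adjusted p = 0.000212). The accessions did not overlap in either gene, although the QSZ libraries differed among themselves by more in OsABA8ox2 than in OsABA8ox3. The third, OsABA8ox1, stood at 15.6, 16.8 and 9.44 FPKM in WR04-6, against 33.1, 19.7 and 25.6 FPKM in QSZ (log2 fold change -1.28, SE 0.41, adjusted p = 0.0201). Its call was lost without WR04-6 replicate 3 (log2 -1.06, adjusted p = 0.0824), without QSZ replicate 1 (log2 -1.11, adjusted p = 0.0572), with library totals alone and in both limma fits.

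Of 23 tested genes of ABA signalling none were up-regulated and 10 were down-regulated, with a median log2 fold change of -0.98. With library totals alone 1 was up-regulated and 9 were down-regulated. The protein phosphatases 2C of clade A, which hold the pathway off and are themselves induced by ABA, made up most of the calls with 6 of 9 members. OsPP2C51 (LOC_Os05g49730, chromosome 5, 28523662 to 28526025) had 3.60, 1.18 and 2.58 FPKM in WR04-6, against 31.0, 43.0 and 50.8 FPKM in QSZ (log2 fold change -4.46, SE 0.48, adjusted p = 5.7e-06). OsPP2C30 (LOC_Os03g16170) had 1.98, 1.03 and 2.33 FPKM in WR04-6, against 26.1, 34.1 and 20.2 FPKM in QSZ (log2 fold change -4.27, SE 0.43, adjusted p = 3.2e-06). OsPP2C49 was at 0.887 ± 0.122 FPKM in WR04-6 and 5.79 ± 1.53 FPKM in QSZ (SD, n = 3 each). OsPP2C08 and OsPP2C50 were lower as well, by -2.55 and -1.42 on the log2 scale, and OsPP2C50 was at -0.95 under limma on log2(FPKM + 1). The fold change of OsPP2C09 was -1.02, and it fell short of the limit of 1 without WR04-6 replicate 2 (-0.90), QSZ replicate 2 (-0.95) or QSZ replicate 3 (-0.92), in both limma fits (-0.64 each) and with library totals alone (-0.64, adjusted p = 0.0547). Of 10 SnRK2 kinases (SAPK1 to SAPK10), which carry the ABA signal, SAPK3 (LOC_Os10g41490) was the one called, with 8.06, 11.8 and 10.2 FPKM in WR04-6, against 27.0, 35.6 and 39.0 FPKM in QSZ (log2 fold change -2.14, SE 0.26, adjusted p = 1.8e-05). The other kinases differed by log2 values between -0.88 (SAPK10) and 0.72 (SAPK7). SAPK10 passed the limit without WR04-6 replicate 1 (-1.02) or QSZ replicate 1 (-1.01), and SAPK7 passed it with library totals alone (1.09).

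Regulators that act with ABA in the maturing seed were also lower. OsVP1 (LOC_Os01g68370), the rice VIVIPAROUS1 factor that keeps embryos dormant, was read at 61.4, 45.6 and 61.0 FPKM in WR04-6, against 102, 113 and 129.7 FPKM in QSZ (log2 fold change -1.42, SE 0.25, adjusted p = 0.00037). OsMFT2 (LOC_Os01g02120, chromosome 1, 612564 to 615650), a phosphatidylethanolamine-binding protein related to MOTHER OF FT AND TFL1, was read at 4.10, 3.92 and 3.76 FPKM in WR04-6, against 85.7, 67.9 and 42.3 FPKM in QSZ (log2 fold change -4.41, SE 0.40, adjusted p = 1.3e-06). OsABI5 (LOC_Os01g64000), the bZIP factor of ABA-responsive genes, had 63.0, 46.6 and 68.4 FPKM in WR04-6, against 75.2, 86.9 and 107 FPKM in QSZ with no overlap, and at log2 -0.98 it stood just under the limit, which it passed in 7 of 17 alternatives. A receptor gene annotated as PYL9-like, LOC_Os06g36670, which fell outside that list, had 2.01, 2.62 and 0.532 FPKM in WR04-6, against 30.6, 34.1 and 41.3 FPKM in QSZ (log2 fold change -4.74, SE 0.53, adjusted p = 7.8e-06).

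LEA proteins and dehydrins protect cells during drying and are classic ABA targets. All 8 tested members of their list were down-regulated in WR04-6, with a median log2 fold change of -3.99. RAB16D (LOC_Os11g26750, chromosome 11, 15320188 to 15321526) stood at 3.44, 0.780 and 1.68 FPKM in WR04-6, against 369, 789 and 654 FPKM in QSZ (log2 fold change -8.63, SE 1.28, adjusted p = 9.7e-05). Its neighbour RAB16C (LOC_Os11g26760, chromosome 11, 15327768 to 15328657) stood at 9.18, 5.37 and 7.08 FPKM in WR04-6, against 493, 892 and 1226 FPKM in QSZ (log2 fold change -7.30, SE 0.85, adjusted p = 1.2e-05). RAB16B, in the same cluster, had 65.2, 47.6 and 59.2 FPKM in WR04-6, against 508, 1101 and 932 FPKM in QSZ. The dehydrins of this cluster are similar in sequence, and how reads were split between them is uncertain. Among the LEA proteins Emp1 (LOC_Os05g28210) had 406, 270.1 and 276 FPKM in WR04-6, against 3709, 5339 and 8295 FPKM in QSZ, and it was 1 of the 5 members with the largest loss in mean FPKM. OsLEA3 (LOC_Os05g46480) was 601 ± 97.3 FPKM in WR04-6 and 4740.1 ± 1209.9 FPKM in QSZ. Summed over the 8 genes, the level was 2946, 2451 and 2886 FPKM in WR04-6, against 14538, 24436 and 24807 FPKM in QSZ. The accessions were far apart in this sum, and QSZ replicate 1 was the QSZ library nearest to WR04-6. Of the 13 genes whose annotation contains the LEA name, some of them shared with that list, 12 were down-regulated and none up-regulated. The LEA protein D-34 gene LOC_Os12g43140 had the lowest fold change among them, with 10.8, 6.29 and 4.86 FPKM in WR04-6, against 484, 513 and 529.5 FPKM in QSZ (log2 fold change -6.49, SE 0.70, adjusted p = 6.0e-06).

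GA metabolism differed by step. Of 18 tested genes 5 were up-regulated and 3 were down-regulated, with a median log2 fold change of 0.48, and the up-regulated genes were all of synthesis. In the early part of the pathway OsKS1 (LOC_Os04g52230, chromosome 4, 31026617 to 31031248), the ent-kaurene synthase, was lower in WR04-6 with 0.728, 0.918 and 1.02 FPKM in WR04-6, against 11.9, 10.2 and 11.9 FPKM in QSZ (log2 fold change -4.05, SE 0.24, adjusted p = 1.9e-08). The next enzymes were higher. OsKAO (LOC_Os06g02019), ent-kaurenoic acid oxidase, was read at 11.5, 8.75 and 7.86 FPKM in WR04-6, against 1.81, 0.818 and 0.429 FPKM in QSZ (log2 fold change 2.85, SE 0.48, adjusted p = 0.000259). OsKO2 (LOC_Os06g37364), ent-kaurene oxidase, was read at 40.3, 54.5 and 47.0 FPKM in WR04-6, against 19.3, 19.5 and 12.1 FPKM in QSZ (log2 fold change 1.11, SE 0.17, adjusted p = 0.00012), and without QSZ replicate 3 its fold change of 0.95 fell under the limit. No library of one accession reached into the range of the other in these 3 genes. OsCPS1, another gene of early synthesis, was not called, but it passed as down-regulated in 6 of 16 alternatives, at log2 -1.60 to -1.35.

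In the late part, which makes bioactive GA, 3 of 5 tested genes were up-regulated and none down-regulated. OsGA20ox1 (LOC_Os03g63970, chromosome 3, 36150664 to 36152517), a GA 20-oxidase, had 174, 129.9 and 99.2 FPKM in WR04-6, against 16.6, 17.3 and 8.87 FPKM in QSZ (log2 fold change 2.88, SE 0.28, adjusted p = 1.9e-06). Its relative OsGA20ox2 (LOC_Os01g66100, chromosome 1, 38382382 to 38385504), known as the semi-dwarf gene SD1 of the Green Revolution, had 9.29, 10.2 and 8.61 FPKM in WR04-6, against 2.02, 1.41 and 1.02 FPKM in QSZ (log2 fold change 2.29, SE 0.46, adjusted p = 0.00106). OsGA3ox2 (LOC_Os01g08220), which performs the last activating step, had 16.1, 9.72 and 15.5 FPKM in WR04-6, against 2.37, 1.86 and 0.304 FPKM in QSZ (log2 fold change 2.83, SE 0.55, adjusted p = 0.000847). The WR04-6 libraries were all above the QSZ libraries in these genes. Of 9 GA 2-oxidases and other breakdown genes tested, 2 were down-regulated and none up-regulated. OsGA2ox6 (LOC_Os04g44150) was lower in WR04-6 with 1.79, 1.15 and 1.36 FPKM in WR04-6, against 8.91, 15.9 and 19.6 FPKM in QSZ (log2 fold change -3.75, SE 0.36, adjusted p = 2.1e-06), and OsGA2ox8 (LOC_Os05g48700) with 0.647, 0.811 and 0.889 FPKM in WR04-6, against 2.74, 2.78 and 3.53 FPKM in QSZ (log2 fold change -2.32, SE 0.53, adjusted p = 0.00246). OsGA2ox5 stood at 0.483, 0.788 and 1.40 FPKM in WR04-6, against 0.368, 0.0456 and 0 FPKM in QSZ, was not called (log2 2.32, adjusted p = 0.0592), and passed in 5 of 17 alternatives. These were the fits without QSZ replicate 1 (log2 4.81, adjusted p = 0.00116), with library totals alone (2.66, adjusted p = 0.0330), with counts divided by 4 (2.26, adjusted p = 0.0249), under DESeq2 (2.31, adjusted p = 0.0230) and under limma on log2(FPKM + 0.1) (2.28, adjusted p = 0.00300). OsGA2ox3 was not called either (log2 -2.81), and passed without WR04-6 replicate 2, where the other WR04-6 libraries are at 0.

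Downstream of the hormone, the receptor and the targets went opposite ways. OsGID1 (LOC_Os05g33730, chromosome 5, 19868419 to 19871283), the soluble GA receptor, was lower in WR04-6 with 70.1, 57.8 and 58.7 FPKM in WR04-6, against 141, 154 and 144 FPKM in QSZ (log2 fold change -1.61, SE 0.14, adjusted p = 6.3e-07). OsGAMYB (LOC_Os01g59660), the MYB factor that switches on hydrolases in the aleurone, was higher with 49.3, 54.4 and 49.3 FPKM in WR04-6, against 10.1, 14.6 and 15.4 FPKM in QSZ (log2 fold change 1.55, SE 0.29, adjusted p = 0.000585). SLR1, the DELLA repressor that the receptor removes, was read at 78.8, 76.2 and 77.4 FPKM in WR04-6, against 39.9, 45.5 and 42.0 FPKM in QSZ and at log2 0.49 was not called. OsGSR1 (LOC_Os06g15620), a GA-stimulated small protein, was higher with 144, 104 and 127 FPKM in WR04-6, against 19.1, 0.920 and 0.417 FPKM in QSZ (log2 fold change 3.87, SE 0.93, adjusted p = 0.00359). QSZ replicate 1 carried nearly all of the QSZ signal of OsGSR1, whose fold change was 7.15 without it, and its adjusted p was 0.055 in a fit of the 12 DAI libraries alone.

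**Figure D2:**
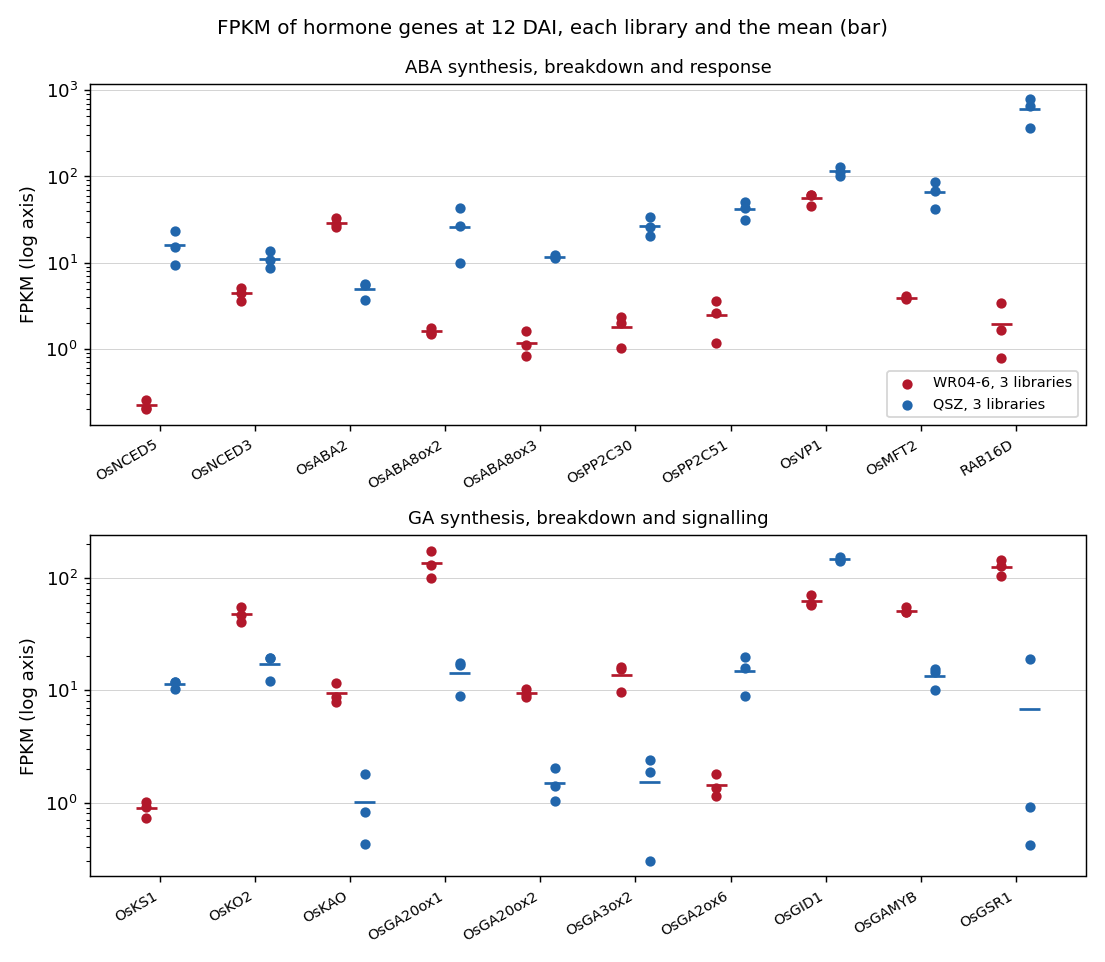
FPKM (log scale) of 10 ABA-related and 10 GA-related genes at 12 DAI, 1 point for each library, WR04-6 to the left of QSZ. The 20 genes were chosen among those called, and their WR04-6 points lie apart from the QSZ points. Examples are 0.201 to 0.257 against 9.39 to 23.6 FPKM in OsNCED5 and 99.2 to 174 against 8.87 to 17.3 FPKM in OsGA20ox1. In the full lists the accessions did not overlap in 6 of 9 tested ABA metabolism genes and 16 of 23 ABA signalling genes. The same held for 8 of 8 LEA and dehydrin genes, 12 of 18 GA metabolism genes and 4 of 4 GA signalling genes. Over all tested genes the share was 66.1%.

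Storage-protein transcripts were among the most abundant of the seeds, and many were lower in WR04-6. All 6 tested seed albumins of the RAG family, allergenic proteins related to alpha-amylase/trypsin inhibitors and encoded in a cluster on chromosome 7, were down-regulated, with a median log2 fold change of -2.89. RAG2 (LOC_Os07g11380, chromosome 7, 6258913 to 6259695) was read at 1815, 2447 and 1466 FPKM in WR04-6, against 14252, 10870.0 and 9238 FPKM in QSZ (log2 fold change -2.95, SE 0.46, adjusted p = 0.000132). The RA5 gene LOC_Os07g11510 (chromosome 7, 6336108 to 6336920) differed most of the 6, with 8.55, 14.2 and 13.9 FPKM in WR04-6, against 5534, 1887 and 2293 FPKM in QSZ (log2 fold change -8.41, SE 0.78, adjusted p = 1.5e-06). Summed over the family, the level was 4299, 5556 and 3996 FPKM in WR04-6, against 39712, 24551 and 23108 FPKM in QSZ. No WR04-6 library came near the lowest QSZ library in that sum.

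Prolamins, the alcohol-soluble proteins of the endosperm, did not move as a block. Of 23 tested genes 5 were up-regulated and 11 down-regulated, with a median log2 fold change of -0.99, and their summed level was 11368, 17243 and 12275 FPKM in WR04-6, against 60502, 35627 and 38628 FPKM in QSZ. LOC_Os12g17010 (chromosome 12, 9733273 to 9734352), annotated as a PPROL 17 precursor, stood at 0, 0 and 0.0884 FPKM in WR04-6, against 13253, 8047 and 8801 FPKM in QSZ. The prolamin gene LOC_Os12g16890 (chromosome 12, 9688985 to 9689714) stood at 17.03, 26.1 and 21.2 FPKM in WR04-6, against 9134, 5342 and 5721 FPKM in QSZ (log2 fold change -8.66, SE 0.82, adjusted p = 1.8e-06). On chromosome 7 the picture was reversed for a pair of neighbours. LOC_Os07g11920 (chromosome 7, 6613131 to 6613762) was read at 725, 942 and 788 FPKM in WR04-6, against 0, 0 and 0.0394 FPKM in QSZ, and LOC_Os07g11910 (chromosome 7, 6611125 to 6611758) was read at 459, 555 and 459 FPKM in WR04-6, against 0, 0 and 0 FPKM in QSZ. These genes are near-identical copies within a large family, and the accessions may differ in copies and in sequence, so the split of reads among them is uncertain. In LOC_Os07g11910 the fold was at least 4498, counted against a floor of 3 fragments over the 3 QSZ libraries. The 13 kDa prolamin C gene LOC_Os07g10580 was abundant in both and lower in WR04-6, with 3470.1, 4765 and 3337 FPKM in WR04-6, against 12991, 9059 and 8669 FPKM in QSZ (log2 fold change -1.78, SE 0.40, adjusted p = 0.00234).

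Glutelins, the main storage proteins of rice, were less clear. Of 12 tested genes 1 was up-regulated and 3 were down-regulated, with a median log2 fold change of -1.15 that shrank to -0.10 without QSZ replicate 1. GluA1 (LOC_Os01g55690) had 1086, 1726 and 1226 FPKM in WR04-6, against 7211, 3407 and 3859.8 FPKM in QSZ (log2 fold change -2.21, SE 0.49, adjusted p = 0.00195), and GluA2 (LOC_Os10g26060) had 671, 879 and 692 FPKM in WR04-6, against 4481, 1986 and 2073 FPKM in QSZ (log2 fold change -2.29, SE 0.51, adjusted p = 0.00202). GluB4 had 221, 353 and 279.6 FPKM in WR04-6, against 556, 141 and 149 FPKM in QSZ and overlapped, as did GluB5 and GluC. GluB1a and GluB1b are near-identical copies whose counts cannot be kept apart. GluB2 (LOC_Os02g15150, chromosome 2, 8446601 to 8448701) was the one member up-regulated, with 359.6, 564 and 454 FPKM in WR04-6, against 17.1, 8.60 and 5.72 FPKM in QSZ (log2 fold change 5.10, SE 0.62, adjusted p = 1.7e-05). GluD1 was called down-regulated at log2 -1.98, a call lost without QSZ replicate 1 (log2 -1.15, adjusted p = 0.109) or WR04-6 replicate 1 (log2 -1.84, adjusted p = 0.0593) and in 4 of 17 alternatives in all.

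Oleosins coat the oil bodies of embryo and aleurone. All 6 tested genes were down-regulated in WR04-6, with a median log2 fold change of -3.28 and a summed level of 379, 295 and 487 FPKM in WR04-6, against 3381, 4445 and 5322 FPKM in QSZ. The 18 kDa oleosin gene LOC_Os03g49190 (chromosome 3, 28021862 to 28022837) had 64.0, 45.1 and 88.5 FPKM in WR04-6, against 796, 1148 and 1099 FPKM in QSZ (log2 fold change -4.32, SE 0.37, adjusted p = 7.2e-07). The 16 kDa-like gene LOC_Os09g15520 had 55.2, 47.9 and 68.2 FPKM in WR04-6, against 574, 851 and 917 FPKM in QSZ (log2 fold change -4.16, SE 0.51, adjusted p = 2.0e-05). Both were lower in every WR04-6 library than in any QSZ library by about the same factor.

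**Figure D3:**
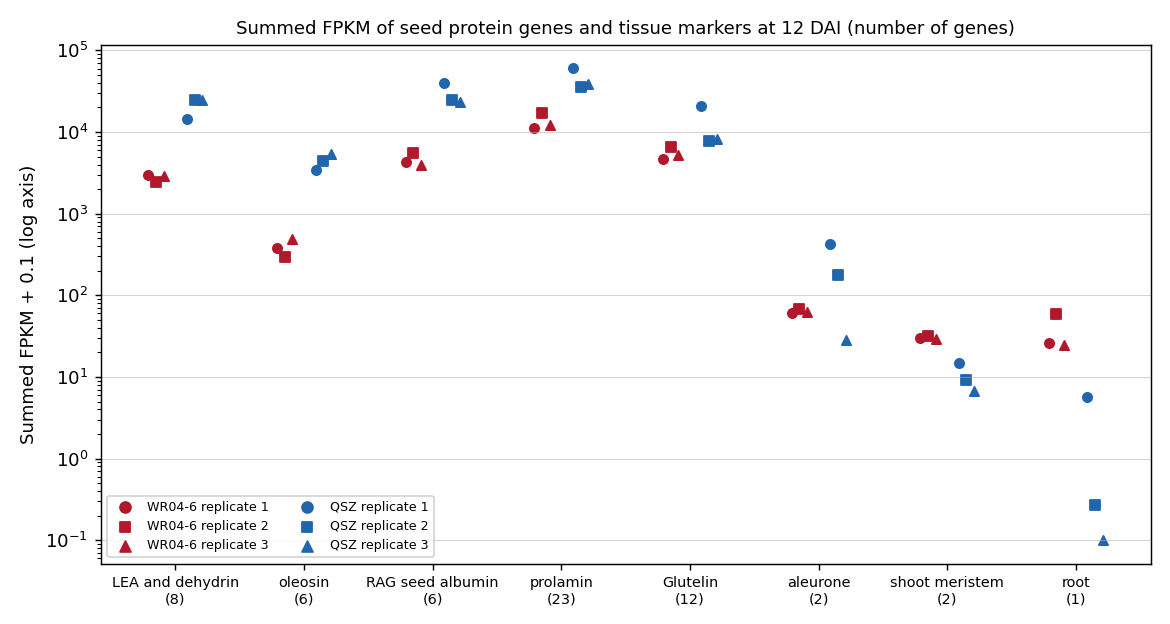
Summed level (FPKM + 0.1, log scale) in each library at 12 DAI for LEA and dehydrin genes, oleosins, RAG albumins, prolamins, glutelins and for markers of aleurone, shoot meristem and root, WR04-6 left of QSZ. The storage and LEA sums lie lower in WR04-6, as in oleosins at 295 to 487 against 3381 to 5322 FPKM, the meristem sum lies higher, and the aleurone sum overlaps.

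Alpha-amylases, which break down endosperm starch, were not higher in WR04-6 as a group. Of 9 tested genes none were up-regulated and 3 were down-regulated, with a median log2 fold change of -1.27, and without WR04-6 replicate 1 the down-regulated count was 1. RAmy1A (LOC_Os02g52710, chromosome 2, 32248279 to 32250180), the classic GA-induced enzyme of the aleurone, was read at 11.7, 14.0 and 12.3 FPKM in WR04-6, against 411, 161 and 12.6 FPKM in QSZ (log2 fold change -4.27, SE 0.82, adjusted p = 0.000708). QSZ replicate 3 overlapped with WR04-6 and QSZ replicate 1 was the highest. RAmy3E (LOC_Os08g36900), the most abundant member in both accessions, had 277, 313 and 209 FPKM in WR04-6, against 468, 681 and 348 FPKM in QSZ (log2 fold change -1.27, SE 0.43, adjusted p = 0.0251). That call was lost without WR04-6 replicate 1 (log2 -1.31, adjusted p = 0.0575), WR04-6 replicate 3 (log2 -1.13, adjusted p = 0.0888) or QSZ replicate 2 (log2 -0.99, adjusted p = 0.102), and in 6 of 17 alternatives in all. RAmy1C was called at log2 -1.74, and not in 3 of 17 alternatives, that without WR04-6 replicate 1 (log2 -1.56, adjusted p = 0.0586) among them. RAmy3A spread widely within both accessions, at 30.2, 156 and 13.0 FPKM in WR04-6, against 1.38, 14.8 and 20.2 FPKM in QSZ, and was not called. Neither RAmy1B nor RAmy3D was called, although RAmy1B passed without QSZ replicate 3 (log2 -2.17, adjusted p = 0.0344) and RAmy3D without any 1 of 3 libraries (WR04-6 replicate 2, QSZ replicate 1 or QSZ replicate 2) and in 6 of 17 alternatives in all. Among 298 tested genes of starch and sucrose metabolism 59 were up-regulated and 58 down-regulated, and the sign of their median, -0.03, changed without QSZ replicate 1 (0.09) and with library totals alone (0.35). Of this pathway beta-glucosidase 26 (LOC_Os07g46280) was among the highest, with 34.6, 65.5 and 72.3 FPKM in WR04-6, against 1.47, 1.98 and 3.30 FPKM in QSZ (log2 fold change 4.27, SE 0.66, adjusted p = 0.000138).

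Water uptake and wall loosening are needed for the embryo axis to extend. Among 25 tested aquaporins, the channel proteins for water, 8 were up-regulated and 5 down-regulated. The plasma-membrane channel PIP2-4 (LOC_Os07g26630, chromosome 7, 15358960 to 15360495) was read at 116, 104 and 159 FPKM in WR04-6, against 2.94, 0.750 and 0 FPKM in QSZ (log2 fold change 6.34, SE 0.93, adjusted p = 8.9e-05). PIP2-6 (LOC_Os04g16450) was read at 34.1, 39.7 and 30.4 FPKM in WR04-6, against 3.88, 3.60 and 0.633 FPKM in QSZ (log2 fold change 3.33, SE 0.53, adjusted p = 0.000158). In contrast, TIP3-1 (LOC_Os10g35050, chromosome 10, 18701132 to 18702561), a channel of the storage vacuole of maturing seeds, was lower in WR04-6 with 210.4, 206 and 215 FPKM in WR04-6, against 931, 949 and 1151 FPKM in QSZ (log2 fold change -2.64, SE 0.19, adjusted p = 1.1e-07). TIP3-2 (LOC_Os04g44570) was lower as well, by -2.58 on the log2 scale.

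Expansins, which loosen the cell wall, leaned to WR04-6. Of 40 tested genes 15 were up-regulated and 5 down-regulated, with a median log2 fold change of 1.21, and the down-regulated count was 3 without WR04-6 replicate 2, WR04-6 replicate 3, QSZ replicate 1 or QSZ replicate 2. Expansin-A2 (LOC_Os01g60770) stood at 13.2, 19.7 and 17.3 FPKM in WR04-6, against 2.29, 0.471 and 0.434 FPKM in QSZ (log2 fold change 3.61, SE 0.69, adjusted p = 0.000702). Expansin-B11 (LOC_Os02g44108) stood at 20.5, 45.6 and 20.2 FPKM in WR04-6, against 7.06, 1.13 and 0 FPKM in QSZ (log2 fold change 3.06, SE 1.08, adjusted p = 0.0305), and its call was lost without WR04-6 replicate 2 (log2 2.57, adjusted p = 0.0909) or QSZ replicate 2 (log2 2.69, adjusted p = 0.101) and in 4 of 17 alternatives in all. The lowest fold change among the abundant expansins belonged to expansin-like A2 (LOC_Os10g39640), which was read at 3.44, 4.03 and 2.03 FPKM in WR04-6, against 16.9, 18.6 and 19.99 FPKM in QSZ (log2 fold change -2.93, SE 0.49, adjusted p = 0.000269). A xyloglucan endotransglucosylase gene, LOC_Os11g33270, whose enzyme class cuts and rejoins wall polymers, had 280.4, 179.7 and 177 FPKM in WR04-6, against 26.8, 0.682 and 0.759 FPKM in QSZ (log2 4.16, adjusted p = 0.00356), a call lost in a fit of 12 DAI alone (adjusted p = 0.0557). The alpha-tubulin chain 2 gene LOC_Os11g14220, 1 of the 5 members with the largest gain in mean FPKM, had 1195, 1260.0 and 1097 FPKM in WR04-6, against 425, 324 and 98.6 FPKM in QSZ (log2 fold change 1.72, SE 0.42, adjusted p = 0.00378).

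Peroxidases and auxin genes showed the same lean. Of 102 tested peroxidase genes, class III enzymes of the wall with a few ascorbate peroxidases, 30 were up-regulated and 5 down-regulated, with a median log2 fold change of 0.83, and the down-regulated count was 3 without WR04-6 replicate 1 or WR04-6 replicate 3. The cationic peroxidase gene LOC_Os01g73220 was read at 10.2, 11.8 and 28.6 FPKM in WR04-6, against 0, 0.279 and 0.317 FPKM in QSZ (log2 fold change 5.99, SE 1.09, adjusted p = 0.000506), and peroxidase 3 (LOC_Os06g46799) at 19.0, 39.2 and 33.6 FPKM in WR04-6, against 2.70, 0.513 and 0.0768 FPKM in QSZ (log2 fold change 4.45, SE 0.90, adjusted p = 0.00104). Of 105 tested genes named for auxin 31 were up-regulated and 7 down-regulated, with a median of 0.83. The up-regulated count was 49 without QSZ replicate 1 and 20 without QSZ replicate 2, and the down-regulated count was 4 without WR04-6 replicate 2. IAA7 (LOC_Os02g13520), a repressor of auxin response, was higher in WR04-6 with 14.1, 17.7 and 23.1 FPKM in WR04-6, against 4.51, 2.88 and 0.525 FPKM in QSZ (log2 fold change 2.45, SE 0.50, adjusted p = 0.00115), while IAA9 (LOC_Os02g56120), of the same family, was lower with 2.34, 4.23 and 3.24 FPKM in WR04-6, against 18.1, 11.7 and 12.6 FPKM in QSZ (log2 fold change -2.48, SE 0.36, adjusted p = 7.5e-05). The dormancy-associated gene LOC_Os03g22270, of the auxin-repressed type, was lower with 28.5, 31.1 and 35.8 FPKM in WR04-6, against 53.5, 82.6 and 96.3 FPKM in QSZ (log2 fold change -1.67, SE 0.27, adjusted p = 0.000213). Across the alternatives the lowest median was 0.38 for the peroxidase genes and 0.59 for the auxin genes. Library totals alone raised fold changes in general, so that alternative could not turn a positive median.

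Genes of DNA replication and chromatin are given beside the shares over all tested genes, 16.3% up-regulated and 13.2% down-regulated. Of 75 tested DNA replication genes 16 (21.3%) were up-regulated and 3 (4%) down-regulated, with a median log2 fold change of 0.26. Without QSZ replicate 1 these counts were 27 and 4. Of 89 tested genes with histone in their annotation 13 (14.6%) were up-regulated and 7 (7.87%) down-regulated, with 8 up-regulated without QSZ replicate 2. Histone H2A.6 (LOC_Os05g02300) had 20.9, 30.6 and 23.6 FPKM in WR04-6, against 4.78, 0.361 and 0.455 FPKM in QSZ (log2 fold change 3.39, SE 0.91, adjusted p = 0.00689), and H2A.5 (LOC_Os01g31800) had 11.9, 15.9 and 14.4 FPKM in WR04-6, against 2.74, 0.272 and 0.0533 FPKM in QSZ (log2 fold change 3.42, SE 0.96, adjusted p = 0.00942). The higher QSZ value came from replicate 1 in both. The linker histone H1 gene LOC_Os06g04020 was lower in WR04-6, with 71.5, 64.0 and 79.9 FPKM in WR04-6, against 103, 185 and 224 FPKM in QSZ (log2 fold change -1.64, SE 0.34, adjusted p = 0.0012).

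Several housekeeping systems held fewer DEGs than the background share of 29.5%. Of 321 tested ribosome genes 20 were up-regulated and 11 down-regulated, and of 86 proteasome genes 6 and 3. Without QSZ replicate 1 there were 17 down-regulated ribosome genes and 10 up-regulated proteasome genes. In oxidative phosphorylation, the respiratory chain of mitochondria, 21 of 136 genes were up-regulated and 5 down-regulated. Of 241 spliceosome genes 10 were up-regulated and 20 down-regulated. The alcohol dehydrogenases OsADH1 and OsADH2 and the pyruvate decarboxylase OsPDC2, which ferment sugar when oxygen is short, were not called. OsADH1 had 862, 747 and 581 FPKM in WR04-6, against 714, 989.9 and 876 FPKM in QSZ, and the accessions overlapped. OsADH2 had a log2 fold change of -1.07 that passed under DESeq2 and with the libraries of 12 DAI alone. The actin-1 gene LOC_Os03g50885, a common reference gene, stood at 338, 329.7 and 309 FPKM in WR04-6, against 170.4, 134 and 135 FPKM in QSZ and was not called at log2 0.78, although it passed in 3 of 17 alternatives, with library totals alone (1.16) among them.

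Genes of the photosynthetic light harvest leaned to WR04-6. Of 15 tested antenna-protein genes 7 were up-regulated and 1 down-regulated, with a median log2 fold change of 1.79. The up-regulated count was 4 without WR04-6 replicate 2, 4 without QSZ replicate 2 and 4 under limma on log2(FPKM + 1). The chlorophyll a-b binding protein gene LOC_Os09g17740 had 48.3, 77.5 and 42.3 FPKM in WR04-6, against 2.89, 1.76 and 0.282 FPKM in QSZ (log2 fold change 4.74, SE 0.97, adjusted p = 0.00121), and WR04-6 replicate 2 was the highest library. The plastocyanin gene LOC_Os06g01210, an electron carrier, had 12.9, 28.3 and 13.9 FPKM in WR04-6, against 3.54, 3.45 and 1.95 FPKM in QSZ (log2 fold change 2.25, SE 0.58, adjusted p = 0.00549). Among 69 tested genes of the photosynthesis pathway itself 9 were up-regulated and 10 down-regulated, with 5 up-regulated without WR04-6 replicate 2, and 4 up-regulated and 6 down-regulated without QSZ replicate 2. The root-type ferredoxin gene LOC_Os01g64120 was lower in WR04-6, with 2.21, 1.81 and 1.28 FPKM in WR04-6, against 32.5, 23.5 and 38.0 FPKM in QSZ (log2 fold change -4.52, SE 0.61, adjusted p = 4.1e-05).

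Regulators of the cold response did not rise as a group in WR04-6. Of 15 tested genes 1 was up-regulated and 4 were down-regulated, with a median log2 fold change of -0.54 that turned to 0.05 without QSZ replicate 1 and to 0.14 under limma on log2(FPKM + 0.1). With library totals alone 4 were up-regulated and 4 down-regulated. Among the DREB1 factors, which switch on cold-protective genes, OsDREB1C (LOC_Os06g03670) was lower with 0.0576, 0.167 and 0.227 FPKM in WR04-6, against 1.56, 2.42 and 1.36 FPKM in QSZ (log2 fold change -3.87, SE 0.92, adjusted p = 0.00321). OsDREB1A spread widely in both accessions, with 18.3, 21.8 and 4.26 FPKM in WR04-6, against 38.1, 13.4 and 2.42 FPKM in QSZ, and was not called. OsDREB1G was read at 0.117 FPKM or less in each library, and its call was lost in 8 of 16 alternatives, without any 1 of 5 libraries among them. The kinase gene OsMAPK6 (LOC_Os06g06090) was higher with 42.4, 42.3 and 41.4 FPKM in WR04-6, against 13.6, 11.1 and 11.2 FPKM in QSZ (log2 fold change 1.44, SE 0.11, adjusted p = 2.4e-07), and OsMAPK3 (LOC_Os03g17700) was lower with 5.77, 5.95 and 4.82 FPKM in WR04-6, against 15.7, 17.7 and 10.8 FPKM in QSZ (log2 fold change -1.79, SE 0.29, adjusted p = 0.000185). OsICE1, an upstream activator of DREB1 genes, had 12.0, 9.36 and 10.7 FPKM in WR04-6, against 6.76, 4.14 and 3.17 FPKM in QSZ without overlap and at log2 0.83 was not called, but it passed without QSZ replicate 1 (log2 1.15) and with library totals alone, and in 4 of 17 alternatives in all. OsMYB4 was not called (log2 -0.54) and passed without QSZ replicate 3 (log2 -1.06). OsLti6a, a small membrane protein, missed the limit at an adjusted p of 0.0548 and passed in 6 of 17 alternatives. Among these were library totals alone (log2 1.55, adjusted p = 0.0188), DESeq2 (1.15, adjusted p = 0.0322), the libraries of 12 DAI alone (1.15, adjusted p = 0.0201) and the fit without WR04-6 replicate 1 (1.37, adjusted p = 0.0498).

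WRKY factors and heat shock proteins were more often lower in WR04-6. Of 61 tested WRKY genes 6 were up-regulated and 16 down-regulated, with a median log2 fold change of -0.67. OsWRKY71 (LOC_Os02g08440), known as a repressor of GA signalling in aleurone, had 7.84, 7.69 and 7.17 FPKM in WR04-6, against 31.8, 39.1 and 19.7 FPKM in QSZ (log2 fold change -2.36, SE 0.29, adjusted p = 1.6e-05). Of 55 tested heat shock genes 4 were up-regulated and 18 down-regulated, with a median of -0.86. The 17.9 kDa heat shock gene LOC_Os01g04350, a small chaperone, was read at 2.36, 1.54 and 1.87 FPKM in WR04-6, against 37.5, 46.8 and 41.7 FPKM in QSZ (log2 fold change -4.82, SE 0.39, adjusted p = 3.8e-07), and the gene LOC_Os03g16920, a heat shock cognate of 70 kDa, at 31.0, 19.8 and 22.4 FPKM in WR04-6, against 176, 110.1 and 232 FPKM in QSZ (log2 fold change -3.21, SE 0.44, adjusted p = 4.9e-05). The 18.9 kDa gene LOC_Os02g03570 was an exception, with 9.94, 14.2 and 12.8 FPKM in WR04-6, against 0.999, 0.462 and 0.264 FPKM in QSZ (log2 fold change 4.04, SE 0.47, adjusted p = 1.1e-05). In the AP2 family the gene LOC_Os04g55970, annotated as AIL5 and related to embryo and root development factors, was lower with 38.5, 33.0 and 44.7 FPKM in WR04-6, against 143, 167 and 222 FPKM in QSZ (log2 fold change -2.58, SE 0.31, adjusted p = 1.4e-05). The ethylene-insensitive-like factor gene LOC_Os02g36510 was lower too, with 0.659, 0.512 and 0.342 FPKM in WR04-6, against 8.61, 14.8 and 19.8 FPKM in QSZ (log2 fold change -5.21, SE 0.75, adjusted p = 7.0e-05), and the factor gene bHLH128 (LOC_Os02g39140) was higher, with 28.1, 28.7 and 23.0 FPKM in WR04-6, against 4.78, 1.14 and 0.750 FPKM in QSZ (log2 fold change 3.23, SE 0.58, adjusted p = 0.000471).

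Genes known for low-temperature germination, dormancy and germination under water gave 1 up-regulated and 1 down-regulated gene among 6 tested. qLTG3-1 (LOC_Os03g01320, chromosome 3, 219977 to 221070), a cloned gene for germination in the cold that the table annotates as a retrotransposon protein, stood at 967, 998 and 1084 FPKM in WR04-6, against 421, 424 and 209 FPKM in QSZ (log2 fold change 1.17, SE 0.28, adjusted p = 0.00353). Without QSZ replicate 3 its fold change was 0.93, under the limit. OsMFT1 (LOC_Os06g30370), of the same family as OsMFT2 and known to affect dormancy, was lower with 12.6, 17.9 and 11.8 FPKM in WR04-6, against 94.5, 57.1 and 56.0 FPKM in QSZ (log2 fold change -2.66, SE 0.49, adjusted p = 0.00056). OsSAP16, a zinc-finger protein linked to germination in the cold, was read at 7.23, 9.24 and 7.504 FPKM in WR04-6, against 6.45, 4.04 and 2.41 FPKM in QSZ and was not called (log2 0.54). OsTPP7, a trehalose-phosphate phosphatase of germination under water, overlapped with 21.2, 21.4 and 17.8 FPKM in WR04-6, against 13.2, 17.7 and 16.3 FPKM in QSZ. The ID listed for OsCIPK15 is annotated as a copy on another chromosome, and its value is uncertain.

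Of 16 tested candidate genes within mapped intervals for low-temperature germination, 9 were up-regulated and 2 down-regulated, with a median log2 fold change of 2.24 (1.75 with genes at 0 set to their bound). The study chose these candidates with the help of these samples, so their count is not independent evidence of a direction. At a mean of 10 FPKM or more in 1 accession there were 4 candidates, 2 up-regulated and none down-regulated. The list median lay between 0.38 and 2.69 under the alternatives. Under limma on log2(FPKM + 1) calls were lost for LOC_Os12g28065 (log2 0.30), LOC_Os12g28090 (0.34), LOC_Os12g28250 (0.60), LOC_Os12g28590 (0.19) and LOC_Os12g29290 (0.94). No other alternative lost these calls. The 3 candidates of the interval on chromosome 3 were not called, although LOC_Os03g29850 passed without QSZ replicate 1 (log2 -1.75, adjusted p = 0.0305) and in 5 of 16 alternatives in all, and all 11 calls belonged to the 13 candidates on chromosome 12. LOC_Os12g28270 (chromosome 12, 16705556 to 16712920), listed by the study as a putative amidohydrolase, was the most abundant of them with 44.8, 48.2 and 49.5 FPKM in WR04-6, against 5.97, 6.07 and 5.19 FPKM in QSZ (log2 fold change 2.68, SE 0.11, adjusted p = 1.2e-09). The TPD1-homolog gene LOC_Os12g28750 (chromosome 12, 16988415 to 16990867) had 5.35, 5.34 and 5.36 FPKM in WR04-6, against 0.218, 0.377 and 0.199 FPKM in QSZ (log2 fold change 3.94, SE 0.49, adjusted p = 2.1e-05). A gene with an NB-ARC domain, LOC_Os12g29290, had 1.26, 1.08 and 1.01 FPKM in WR04-6, against 0.0568, 0.0607 and 0.183 FPKM in QSZ (log2 fold change 3.02, SE 0.54, adjusted p = 0.000403). In these 3 genes all WR04-6 libraries were above all QSZ libraries. The transposon-protein gene LOC_Os12g27770 was listed at 0 in WR04-6 and at 2.78, 2.49 and 2.02 FPKM in QSZ, at least 117-fold lower by the floor of 3 fragments. LOC_Os12g28015 was called at log2 1.80, and this was lost without any 1 of 5 of the 6 libraries, with adjusted p-values of 0.0571 to 0.111.

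Detoxification and secondary metabolism had calls in both directions. Of 60 tested glutathione S-transferases, enzymes that couple toxic compounds to glutathione, 13 were up-regulated and 12 down-regulated. GSTU1 (LOC_Os07g28480) was higher with 105, 112 and 152 FPKM in WR04-6, against 6.30, 7.43 and 4.08 FPKM in QSZ (log2 fold change 4.005, SE 0.32, adjusted p = 3.7e-07). GSTF1 (LOC_Os01g27360) was lower with 0.380, 0.281 and 0.761 FPKM in WR04-6, against 15.8, 31.4 and 31.4 FPKM in QSZ (log2 fold change -6.14, SE 1.14, adjusted p = 0.000582). GSTU6 (LOC_Os10g38630) was read at 56.1, 76.1 and 64.6 FPKM in WR04-6 and listed at 0 in QSZ, at least 1311-fold higher by the same floor. Cytochromes P450 had 24 genes up-regulated and 26 down-regulated of 115 tested. In diterpenoid biosynthesis, the pathway of phytoalexins and of GA, 9 of 58 genes were up-regulated and 19 down-regulated, with a median log2 fold change of -1.62, but under limma on log2(FPKM + 0.1) these counts were 13 and 11, and without QSZ replicate 3 there were 5 up-regulated.

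Of 7 tested genes of the flavonoid pathway, which colours the seed coat, 1 was up-regulated and 2 down-regulated. OsCHI (LOC_Os03g60509), the chalcone isomerase, was lower in WR04-6 with 11.04, 14.4 and 22.8 FPKM in WR04-6, against 46.0, 112 and 63.6 FPKM in QSZ (log2 fold change -2.57, SE 0.50, adjusted p = 0.000829). OsANS1 (LOC_Os01g27490), the anthocyanidin synthase, was read at 0.820, 1.01 and 0.223 FPKM in WR04-6 and listed at 0 in QSZ, at least 15.7-fold higher. OsANR, the anthocyanidin reductase, was lower with 0.0809, 0.0856 and 0 FPKM in WR04-6, against 0.353, 1.06 and 0.950 FPKM in QSZ (log2 fold change -4.11, SE 1.33, adjusted p = 0.0204), a call lost in 2 of 17 alternatives, that without WR04-6 replicate 3 (log2 -3.54, adjusted p = 0.0583) among them.

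Of 185 tested genes with an NB-ARC domain, the nucleotide-binding part of intracellular immune receptors, 78 (42.2%) were up-regulated and 19 (10.3%) down-regulated. Their median log2 fold change of 0.87 stayed positive under each alternative, though all alternatives used the same placed reads. At a mean of 10 FPKM or more in 1 accession there were 12 of these genes, 4 up-regulated and 1 down-regulated. Among all members between 1 and 10 FPKM in the higher accession 22.8% were up-regulated and 14.1% down-regulated. The NB-ARC share can include genes that passed the filter through 1 accession alone. A share among NB-ARC genes read in both accessions is not given here. Of 417 tested genes of the plant-pathogen interaction pathway 90 were up-regulated and 65 down-regulated. In that pathway the gene LOC_Os11g42040 (chromosome 11, 25289129 to 25293954), annotated as the disease resistance protein RPM1, was read at 17.4, 15.0 and 14.0 FPKM in WR04-6 and listed at 0 in QSZ. LOC_Os11g37759 (chromosome 11, 22328967 to 22334078), a hypothetical protein of the same pathway, stood at 23.4, 19.6 and 21.5 FPKM in WR04-6 and at 0 in QSZ. Against the floor these were at least 865-fold and 1269.5-fold higher in WR04-6. Over all members 675 genes were listed at 0 in each QSZ library and 160 in each WR04-6 library. Reads of both accessions were placed on 1 rice genome, and whether such genes are silent, absent or too different in sequence to be read was not tested.

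**Figure D4:**
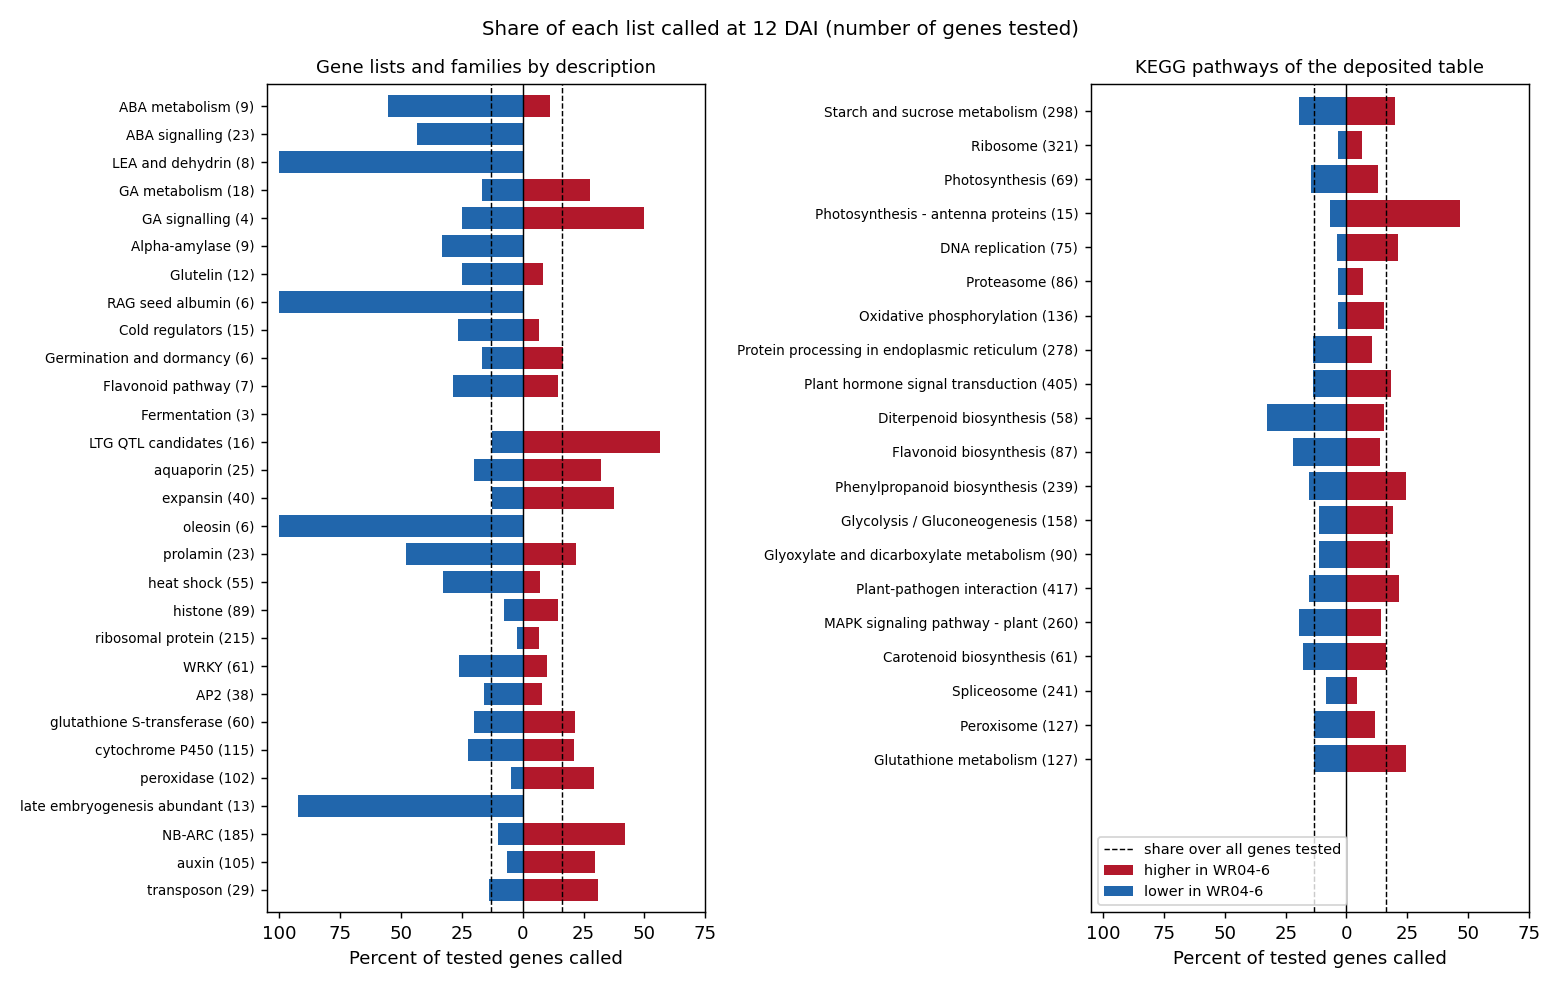
Share of tested genes in each list that was up-regulated (right) or down-regulated (left) in WR04-6 at 12 DAI, in percent, with dashed lines at the shares over all tested genes, 16.3% and 13.2%. LEA, oleosin and RAG genes reach 100% on the down-regulated side, while NB-ARC, expansin, auxin and peroxidase genes pass the line on the up-regulated side.

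The genes with the largest fold changes that were read in all 6 libraries were mostly of unknown function. At the top was LOC_Os03g53210 (chromosome 3, 30519650 to 30521125), with 62.8, 62.3 and 62.3 FPKM in WR04-6, against 0.0168, 0.0506 and 0.0506 FPKM in QSZ (log2 fold change 10.12, SE 0.51, adjusted p = 6.1e-09). The ankyrin-repeat gene LOC_Os11g14544 (chromosome 11, 8163352 to 8170154) followed with 71.5, 80.6 and 62.0 FPKM in WR04-6, against 0.0427, 0.112 and 0.0149 FPKM in QSZ (log2 fold change 9.89, SE 0.59, adjusted p = 2.1e-08). LOC_Os08g40919 (chromosome 8, 25889494 to 25893900), annotated as a family 64 glycosyltransferase, stood at 374, 341 and 384 FPKM in WR04-6, against 2.08, 1.65 and 1.71 FPKM in QSZ (log2 fold change 7.28, SE 0.23, adjusted p = 3.5e-10). Within each accession its values differed little, while the accessions lay far apart. A nitrate and peptide transporter gene, LOC_Os01g68510, had 27.8, 48.7 and 36.3 FPKM in WR04-6, against 0.180, 0.168 and 0.246 FPKM in QSZ (log2 fold change 7.14, SE 0.69, adjusted p = 2.1e-06). At the other end LOC_Os09g08280 (chromosome 9, 4277193 to 4277778), uncharacterized, had 0.0791, 0.144 and 0.0785 FPKM in WR04-6, against 90.7, 64.7 and 102 FPKM in QSZ (log2 fold change -9.98, SE 0.72, adjusted p = 1.2e-07). LOC_Os05g26250, without a named function, was abundant in QSZ, with 8.69, 9.03 and 5.13 FPKM in WR04-6, against 5629, 2705 and 2571 FPKM in QSZ (log2 fold change -9.26, SE 0.80, adjusted p = 6.8e-07). The cinnamyl alcohol dehydrogenase gene LOC_Os10g29470, an enzyme of lignin precursors, had 0.109, 0.168 and 0.0803 FPKM in WR04-6, against 10.8, 18.1 and 25.04 FPKM in QSZ (log2 fold change -7.56, SE 0.70, adjusted p = 1.4e-06).

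The largest gains in absolute level fell on other genes. The PLAT-domain gene LOC_Os10g21670 (chromosome 10, 11110251 to 11111110) was read at 1321, 1618 and 999 FPKM in WR04-6, against 30.9, 45.7 and 15.3 FPKM in QSZ (log2 fold change 5.06, SE 0.52, adjusted p = 3.6e-06). LOC_Os12g37650, uncharacterized, was read at 649, 647 and 942 FPKM in WR04-6, against 59.6, 98.2 and 47.9 FPKM in QSZ (log2 fold change 3.08, SE 0.35, adjusted p = 9.7e-06). The lipid-transfer protein gene LOC_Os08g03690 had 815, 1758 and 1951 FPKM in WR04-6, against 111, 717 and 494 FPKM in QSZ; its libraries spread so widely that it was not called (log2 1.38, adjusted p = 0.159).

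The contrast of the accessions at 12 DAI was tested against the mean of the same contrasts at 10 and 14 DAI in 1 fit. A call can come from 10 or 14 DAI alone, so it does not show that a difference belongs to 12 DAI. At 10, 12 and 14 DAI OsGA2ox6 had means of 7.69, 1.43 and 1.92 FPKM in WR04-6, against 9.93, 14.8 and 12.4 FPKM in QSZ. It was called, as was LOC_Os04g12970, with 0.321 FPKM in WR04-6 at 12 DAI and 37.0 FPKM at 14 DAI. QSZ at 10 DAI held replicates 2 and 3 alone. Of all tested genes 5.16% were called, 2.87% with a more positive difference at 12 DAI and 2.29% with a more negative one. Among the members up-regulated at 12 DAI 494 were called in this test, and among those down-regulated 232. Both tests use the libraries of 12 DAI, so these calls are not independent of each other. The count of all 1133 called genes rested strongly on single libraries: it was 305 without WR04-6 replicate 2, 471 without WR04-6 replicate 3, 634 without QSZ replicate 3 and 2355 without QSZ replicate 1. Of 36 named genes called in this test, 6 kept the call in every alternative, and no alternative left out a library of 10 or 14 DAI.

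OsGA20ox1 and OsMFT2 were among these 6. The mean level of OsGA20ox1 at 10, 12 and 14 DAI was 179, 134 and 84.6 FPKM in WR04-6, against 126, 14.3 and 45.0 FPKM in QSZ (interaction 2.42, SE 0.32, adjusted p = 0.00613). In QSZ it was thus lowest at 12 DAI, while in WR04-6 it was lower at each later time. OsMFT2 had means of 4.46, 3.93 and 9.24 FPKM in WR04-6, against 18.2, 65.3 and 31.3 FPKM in QSZ at the same times (interaction -2.27, SE 0.45, adjusted p = 0.0121). The gene LOC_Os09g37394, annotated as auxin-responsive SAUR36-like, had means of 6.49, 9.81 and 4.43 FPKM in WR04-6, against 10.5, 0.431 and 2.52 FPKM in QSZ (interaction 4.33, SE 0.92, adjusted p = 0.0146). Also called in every alternative were LOC_Os12g37650, with means of 780.0, 746 and 367 FPKM in WR04-6, against 343, 68.6 and 132 FPKM in QSZ, the 18.9 kDa heat shock gene LOC_Os02g03570, and LOC_Os01g14440.

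The other 30 calls were each lost in 1 or more alternatives. qLTG3-1 had means of 1046, 1016 and 847 FPKM in WR04-6, against 1255, 351 and 697 FPKM in QSZ (interaction 1.41, SE 0.35, adjusted p = 0.0234), and its call was lost in 3 of 16 alternatives. For OsNCED5 the means were 0.374, 0.222 and 0.319 FPKM in WR04-6, against 0.404, 16.1 and 6.25 FPKM in QSZ (interaction -4.11, SE 1.12, adjusted p = 0.0332), with the call lost in 5 of 16. The aquaporin gene PIP2-4 (LOC_Os07g26630) had means of 155, 126 and 59.2 FPKM in WR04-6, against 14.7, 1.23 and 5.47 FPKM in QSZ (interaction 3.17, SE 0.96, adjusted p = 0.0478), with the call lost in 6 of 16. Without WR04-6 replicate 2 the call was lost for 27 of the 36 genes.

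**Figure D5:**
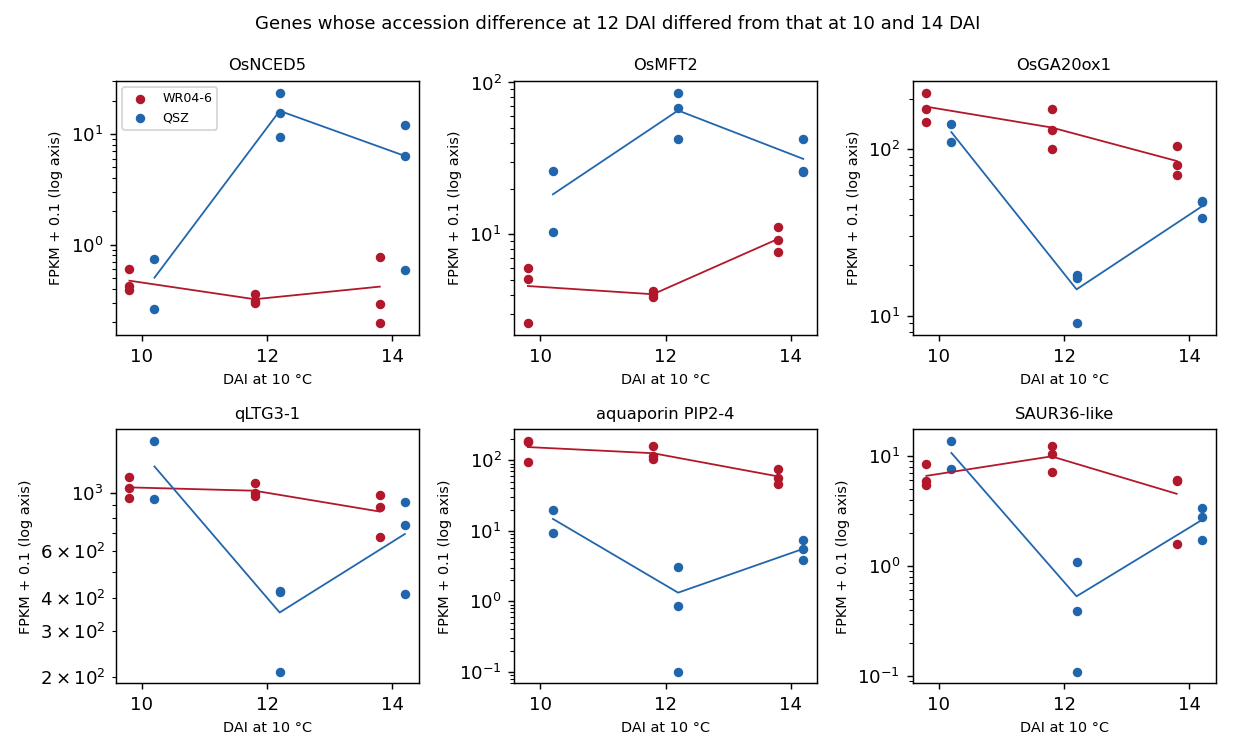
FPKM + 0.1 (log scale) at 10, 12 and 14 DAI for OsNCED5, OsMFT2, OsGA20ox1, qLTG3-1, the aquaporin PIP2-4 and a SAUR36-like gene, 1 point for each library and lines through the means, WR04-6 and QSZ in separate colours. The 6 genes were chosen among those called in the test between times. That their gap at 12 DAI exceeds the mean of the gaps at 10 and 14 DAI is therefore no further support. The calls of OsNCED5, qLTG3-1 and PIP2-4 were lost in 5, 3 and 6 of 16 alternatives. At 12 DAI the QSZ libraries lie above WR04-6 in OsMFT2 and OsNCED5 and below it in the other 4.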

How the data were processed

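Polyadenylated RNA of germinating seeds was sequenced as strand-marked paired reads of 150 bases on a NovaSeq instrument. The submitters' processing notes name cutadapt 1.9, HISAT2 2.0.4 and StringTie 1.3.4d, without settings. The deposited table gives, for each gene and library, an estimated count and an FPKM value that the authors made from the reads, with gene IDs and positions of the rice annotation MSU v7.0. The counts are whole but rise in steps of about 4 for each fragment, and the use of strand in counting is not given in the sources used here. Columns with the authors' own comparisons (fold changes and p-values) were not used.

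All 17 libraries in 6 groups of accession and time entered 1 fit with edgeR 4.0.16 (TMM scaling, quasi-likelihood test) in R 4.3.3, after keeping genes with at least 0.1 FPKM in 2 or more libraries. The libraries of a group are biological replicates by the study's methods, 3 in each group except QSZ at 10 DAI. That group holds replicates 2 and 3 alone, with estimated counts summing to 33280479 and 42313486. The count model takes the estimated counts as they stand, and a fit on counts divided by 4 was among the alternatives, beside DESeq2 1.42.0, limma 3.58.1 on log2(FPKM + 0.1) and log2(FPKM + 1), other scaling, other filters, the replicate block and leaving out each library. The scripts were tested on simulated data. Where an accession was listed at 0, folds were bounded by a floor of 3 fragments (12 counts) over its 3 libraries, which covers counting error only. Lists are described by counts and medians and were not tested as sets. Families were taken by words in the table's gene descriptions and pathways by the KEGG names in the table.

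The members and lists were chosen with earlier results of these data known. Named genes were the 10 highest and 10 lowest fold changes among DEGs without overlap, with counts in all 6 libraries and a mean of at least 10 FPKM in 1 accession; the 5 largest gains and 5 largest losses in mean FPKM; all members of the short gene lists; the 2 highest and 2 lowest DEGs of a pathway or family at 10 FPKM or more; the 5 highest and 5 lowest genes of the test between times at that level, read in all 17 libraries; and actin-1. Of the listed genes OsNCED2, OsGA20ox3, OsGA2ox4, RAmy3C, OsDREB1F, OsLti6b, Sdr4, OsGF14h and OsPDC1 were not analysed here, and Rc and OsLHCB1.2 did not pass the filter. No sequences are shown.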

Additional observations from a re-analysis of the deposited data

Results flagged for a closer look

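For 36 named genes the difference between the accessions at 12 DAI departed from the mean of the differences at 10 and 14 DAI in edgeR's test of the interaction. Such a departure can come from 10 or 14 DAI alone. The values below are that departure on the log2 scale, positive where the difference of WR04-6 over QSZ was more positive at 12 DAI, and the share of all tested genes called in this test was 5.16%. Of the 36 calls 6 were kept in every alternative, for LOC_Os12g37650 (1.996), OsMFT2 (-2.27), OsGA20ox1 (2.42), the 18.9 kDa heat shock gene LOC_Os02g03570 (2.52), LOC_Os01g14440 (-2.31) and the SAUR36-like gene LOC_Os09g37394 (4.33).

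Among hormone and germination genes the value was -4.11 for OsNCED5, 2.25 for OsKAO, -1.95 for OsGA2ox6, -2.35 for the PYL9-like gene LOC_Os06g36670 and 1.41 for qLTG3-1. Among regulators it was -1.33 for OsMAPK3, -1.45 for OsWRKY71, -1.27 for the WRKY gene LOC_Os05g27730, -1.40 for the AP2-type gene LOC_Os04g55970, 2.50 for the bHLH128 gene LOC_Os02g39140 and -8.27 for OsDREB1G, whose libraries at 12 DAI were at or near 0, so that this fitted value is no bound.

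Among genes of water channels, walls and metabolism it was 3.17 for PIP2-4 (LOC_Os07g26630), 2.34 for PIP2-6 (LOC_Os04g16450), 2.75 for expansin-A2 (LOC_Os01g60770), 3.70 for the xyloglucan endotransglucosylase gene LOC_Os11g33270, 1.43 for hexokinase-4 (LOC_Os07g09890), -2.81 for the cytochrome P450 78A9 gene LOC_Os09g35940, -6.04 for the glycosyltransferase gene LOC_Os04g12970 and -4.25 for the dioxygenase gene LOC_Os03g42130. A translation initiation factor gene, LOC_Os01g17330, had -4.64.

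The ankyrin-repeat gene LOC_Os11g14544 had 2.24. LOC_Os12g29350, a candidate of the chromosome 12 interval that the study lists as a putative ATP binding protein, had -1.12. LOC_Os01g62750 had -5.62, a fitted value that is no bound, since its QSZ libraries at 10 and 14 DAI were all listed at 0, and the sign turned under limma on log2(FPKM + 1), to 0.19. The remaining genes are uncharacterized, hypothetical or annotated by number alone. They were LOC_Os01g73940 at 3.28, LOC_Os09g08280 at -3.36, LOC_Os09g39730 at -3.30, LOC_Os08g08090 at 4.44, LOC_Os04g47330 at 3.48, LOC_Os01g74300 at 3.46 and LOC_Os04g53606 at -5.99.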

How the results depend on the processing

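The number of up-regulated genes among all tested was 3582 with TMM scaling and 5496 under limma on log2(FPKM + 0.1), and the number down-regulated was 2897 and 1357 under limma on log2(FPKM + 1). The share of up-regulated genes among the calls was 55.3%, against 72.4% with library totals alone (5258 up-regulated and 2005 down-regulated) and 73.7% and 73.5% under limma with 0.1 and 1 added. When each library of 12 DAI was left out in turn the up-regulated count ran between 3127 and 4265. The down-regulated count ran between 2610 and 2847. For the test between times, 1133 genes were called, 1858 under DESeq2 and 305 to 2355 with a library of 12 DAI left out. Of the single-gene values under alternatives 4612 kept their side of the threshold, 154 lost the call and 60 gained it. No named gene called at 12 DAI changed sign, and 44 values of 17 genes not called did. Same-numbered libraries of the accessions did not pair, since their deviations from the group means correlated at 0.04, 0.01 and 0.15 and WR04-6 replicate 2 correlated best with QSZ replicate 1 (0.17), and the fit with a replicate block called 3489 genes up-regulated and 2779 down-regulated. With 3 libraries for each accession at 12 DAI, genes of a few fragments are limited by depth. The spread was wider in QSZ (median SD of 0.255 on the log2 scale) than in WR04-6 (0.166). DESeq2 gave OsGSR1 no adjusted p.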

Other observations

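The share of members that were DEGs at 12 DAI differed between chromosomes. The share of members called was 36.5% on chromosome 11 (273 up-regulated and 128 down-regulated of 1099) and 34.5% on chromosome 12 (263 up-regulated and 146 down-regulated of 1185), against 27.4% on chromosome 3. Among windows of 1000000 bases with 20 or more members the highest shares were 59.3% on chromosome 11 from 24000001 to 25000000, where 15 of 27 members were up-regulated and 1 was down-regulated, and 59.1% on chromosome 12 from 6000001 to 7000000, with 11 up-regulated and 2 down-regulated of 22. On chromosome 7 from 6000001 to 7000000, the window that holds the RAG albumins and several prolamins, 6 of 34 members were up-regulated and 12 down-regulated. These shares include members that passed the abundance rule through a single accession, in which the rule favoured a difference. Of 675 members listed at 0 in QSZ 636 were up-regulated, and of 160 listed at 0 in WR04-6 145 were down-regulated. Shares among members read in both accessions are not given here. The shares are descriptions and were not tested against chance.

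Of 127 tested glutathione metabolism genes 31 were up-regulated and 17 down-regulated, and of 239 phenylpropanoid genes 58 and 37, where the shares over all tested genes were 16.3% and 13.2%. Putrescine hydroxycinnamoyltransferase (LOC_Os08g43040), which makes phenolamides, was read at 75.2, 86.4 and 75.6 FPKM in WR04-6, against 6.31, 7.63 and 5.63 FPKM in QSZ (log2 fold change 3.23, SE 0.11, adjusted p = 4.8e-10). Cytosolic glutamine synthetase (LOC_Os03g50490), which fixes ammonium, stood at 10.9, 15.0 and 14.5 FPKM in WR04-6, against 90.0, 92.4 and 69.4 FPKM in QSZ (log2 fold change -3.01, SE 0.34, adjusted p = 9.5e-06). The peroxisomal 2-hydroxy-acid oxidase gene LOC_Os07g42440 had 11.03, 14.5 and 14.4 FPKM in WR04-6, against 2.48, 2.45 and 0.682 FPKM in QSZ (log2 fold change 2.47, SE 0.46, adjusted p = 0.000622). A metallothionein gene of type 4A, LOC_Os12g38270, had 0.158, 0.105 and 0.0564 FPKM in WR04-6, against 30.4, 17.5 and 1.12 FPKM in QSZ, with QSZ replicate 3 far below the other QSZ libraries and still above WR04-6. Chitinase 8 (LOC_Os10g39680), a defence enzyme, had 1.63, 0.918 and 0.350 FPKM in WR04-6, against 42.6, 29.2 and 3.07 FPKM in QSZ (log2 fold change -5.02, SE 1.19, adjusted p = 0.00328), again with QSZ replicate 3 the lowest of its group.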
